A study of Mus musculus with 8 samples.

Results

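The kinesin motor genes of the mouse renal cortex were compared after a high fat diet and a control diet. Every gene symbol that starts with Kif and a digit was taken, which gave 38 of 23504 gene symbols. All mice were wild type C57Bl6/J, entered the diets at 6 weeks of age, stayed on them for 9 weeks and were 15 weeks old, and the only difference between the groups in the labels is the diet. There were 4 libraries from mice on the high fat diet (A, B, F and G) and 4 from mice on the control diet (I, J, L and M), made from 1 ug of total RNA of hand-dissected outer cortex with Illumina's TruSeq chemistry and Ribo-Zero Gold depletion of ribosomal RNA. Sex is not stated. Library titles hold an M between the diet and the library's own letter, and the labels do not explain it. Nothing in the labels ties a library to a mouse of its own, so p-values cover the spread among libraries, which may be technical.

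Kinesins are motor proteins that use ATP to move along microtubules or to shorten them. Transport kinesins carry vesicles, organelles and the trains that build cilia, and work in resting as well as dividing cells. Mitotic kinesins assemble the spindle, align chromosomes and complete cytokinesis, and many of their genes are transcribed mainly from late in the cell cycle. By these roles, 12 of the 38 genes were classed as mitotic, 13 as transport and 12 as cilium, microtubule length or other motors, and the last, Kif4-ps, is a pseudogene.

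Total expected counts ran from 23503593 to 26291029 in the high fat libraries and from 26572175 to 30781585 in the control libraries. Rn45s, the ribosomal RNA precursor, took 4.82% to 13.3% of the high fat counts, and in control 50.35% of library J against 1.23% to 5.70% of the others. It was left out before scaling, which left 13993652 counts in control J and at least 21793784 in every other library. The cortex label was checked with markers of the proximal tubule, the main tubule of the cortex: all 12 were detected, and they summed to 33460 to 34840 CPM (TMM-normalised counts per 1000000) in high fat libraries and 31450 to 32960 CPM in control libraries. The single markers were split, with 6 log2 fold changes above 0 and 6 below and a median of -0.054. In edgeR 3 rose (Pck1, Fbp1 and Slc34a1) and 2 fell (Cubn and Aqp1), against 1 and 0 without high fat F. The 6 markers of the thick ascending limb summed to 4322 to 5257 CPM in high fat libraries and 5316 to 6007 CPM in control libraries. In edgeR 4 of the 6 fell on the high fat diet (2 without high fat F, 2 without control I). Among all genes tested, 4.86% rose and 5.13% fell. The genes called in all went from 1469 to 739 without high fat F and to 795 without control I. Red cell precursor markers (8 of 9 found) summed to 2333 CPM in high fat G and 905 CPM in control J, against 405 to 590 CPM in the other 6 libraries. The part of these shifts in the kinesin results was not tested. In bulk tissue, more cells of a type and more RNA per cell cannot be told apart.

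Transport motors and a few others made up nearly all kinesin RNA, and the mitotic genes were low. Levels between genes are given in FPKM, which allows for transcript length, rescaled to 1000000 per library without Rn45s. Kif12, a motor that in mice modifies the severity of inherited cystic kidney disease, had the highest level, 91.5 ± 8.0 FPKM on the high fat diet and 106.9 ± 27.9 FPKM on the control diet (SD, n = 4 each). Next in level were transport motors and the microtubule growth regulator Kif21a. Kif5b, the widely expressed heavy chain of conventional kinesin, stood at 77.1 ± 3.2 FPKM on high fat and 80.2 ± 4.7 FPKM on control, Kif1c, which carries vesicles from the Golgi, at 74.0 ± 6.1 and 69.0 ± 3.5 FPKM, and Kif21a at 62.2 ± 0.82 and 58.8 ± 3.4 FPKM in the same order.

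Kif16b, which moves early endosomes, followed with 48.1 ± 1.0 FPKM on high fat and 45.1 ± 3.8 FPKM on control, then Kif1b, Kif13b, Kif3b and Kif13a. The ciliary motor subunit Kif3a had 7.55 ± 0.13 FPKM on high fat and 7.07 ± 0.13 FPKM on control, and its partner Kif3b had 17.6 ± 0.76 and 17.8 ± 0.90 FPKM. Motors known mainly from neurons were low: Kif5a had 1.27 ± 0.17 FPKM on high fat and 1.07 ± 0.17 FPKM on control, and Kif1a 0.199 ± 0.067 and 0.175 ± 0.031 FPKM. The most abundant mitotic gene, Kif20b, had 4.22 ± 0.82 FPKM on high fat and 3.19 ± 1.77 FPKM on control and stood only fourteenth among the 38. At the bottom, Kif2b had 1 count in high fat A, 3 in control M and none elsewhere, and Kif4-ps had none in any library.

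**Figure D1:**
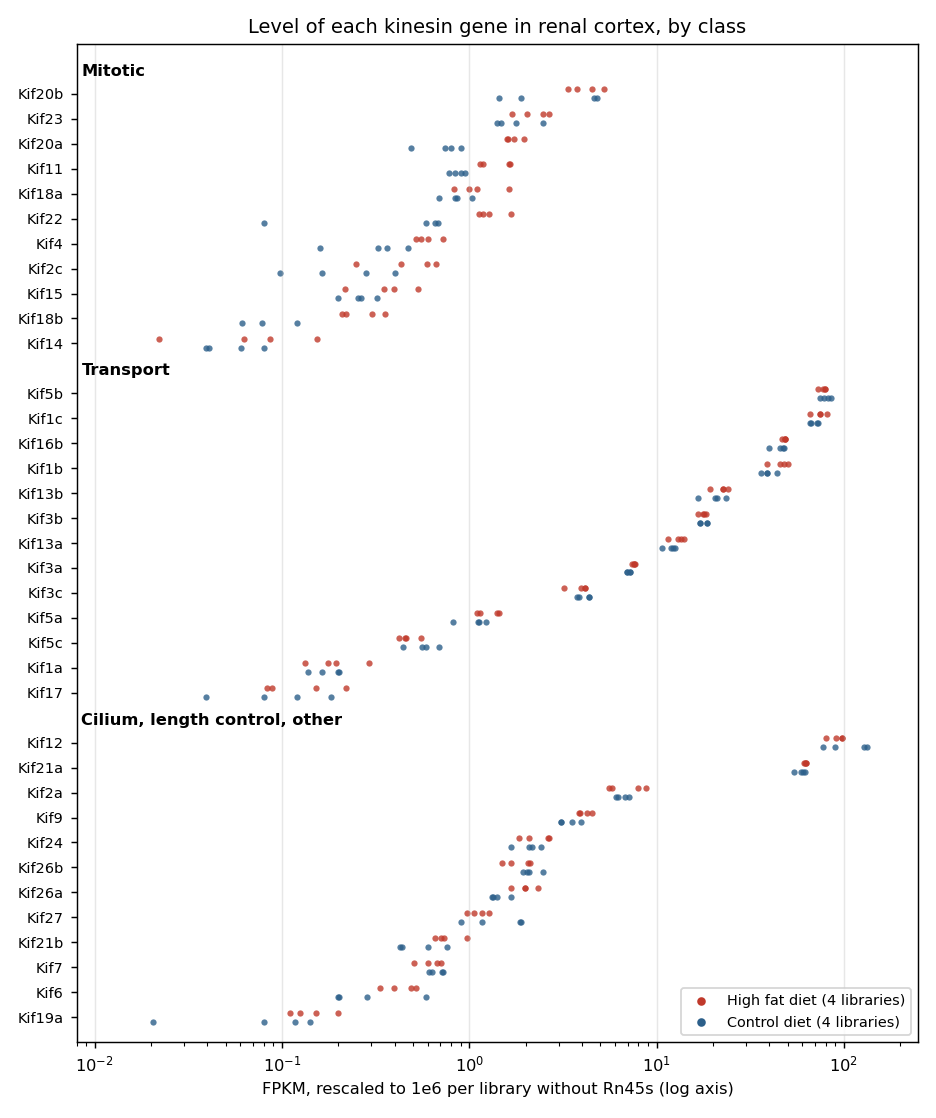
Rescaled FPKM (log axis) of 36 kinesin genes in each library, grouped by class, high fat diet above control diet within each gene. Kif2b and Kif4-ps are left out, as is 1 library at 0 for Kif18b (control J); the mitotic genes lie below 6 FPKM and Kif12, Kif5b, Kif1c and Kif21a above 50 FPKM.

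The diet comparison asks which of these genes differ in level between the cortex of mice on high fat and control diets. Among the kinesins, 5 genes rose on the high fat diet, none fell, and 27 of the 32 tested did not pass the threshold. The genes that rose were the mitotic Kif20a, Kif11 and Kif22, the transport motor Kif1b, and Kif26a. The test was edgeR's quasi-likelihood test with Benjamini-Hochberg adjustment over all 14711 genes tested, of which 9.99% passed at an adjusted p under 0.05, 4.86% higher and 5.13% lower on high fat. Against these, the share of tested kinesins that rose was 15.6%, with no test of that difference. At an unadjusted p under 0.05, 8 of the 32 kinesins were higher and none lower, or 25% in all, beside 27.4% of all genes tested (13.3% higher and 14.1% lower), so the total was near the background share; the 3 beyond those called were Kif4 (log2 fold change 0.78), Kif2c (1.15) and Kif9 (0.27). The values of the diets did not overlap for Kif11, Kif20a, Kif22, Kif26a and Kif4, a share of 15.6% against 17.5% of all genes tested, close to the background share. The number of kinesins called depended on the libraries. It was 5 without high fat B and 5 without control L (with Kif4 in place of Kif1b). It was 3 without control J or M, 2 without high fat A or G, and 1 without high fat F or control I. Calls over all genes, 1469 with all libraries, changed too. They were 1171 without high fat B, 934 without A, 908 without G and 739 without F. They were 994 without control L, 801 without J, 1528 without M and 795 without I.

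By class, the median log2 fold change was 0.69 for the 9 mitotic genes tested, 0.083 for the 12 transport genes and 0.10 for the 11 others, beside -0.00227 for all genes tested. All 9 mitotic values lay above 0, against 8 of 12 transport values and 7 of 11 of the others. Over all genes tested, 7289 values lay above 0 and 7422 below. With no filter on low counts, 11 of the 12 mitotic values lay above 0 and 1 below. The class medians cover only genes that passed the filter on low counts. Mitotic Kif14, Kif18b and Kif2b, transport Kif17, cilium-length Kif19a and Kif4-ps did not pass it.

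**Figure D2:**
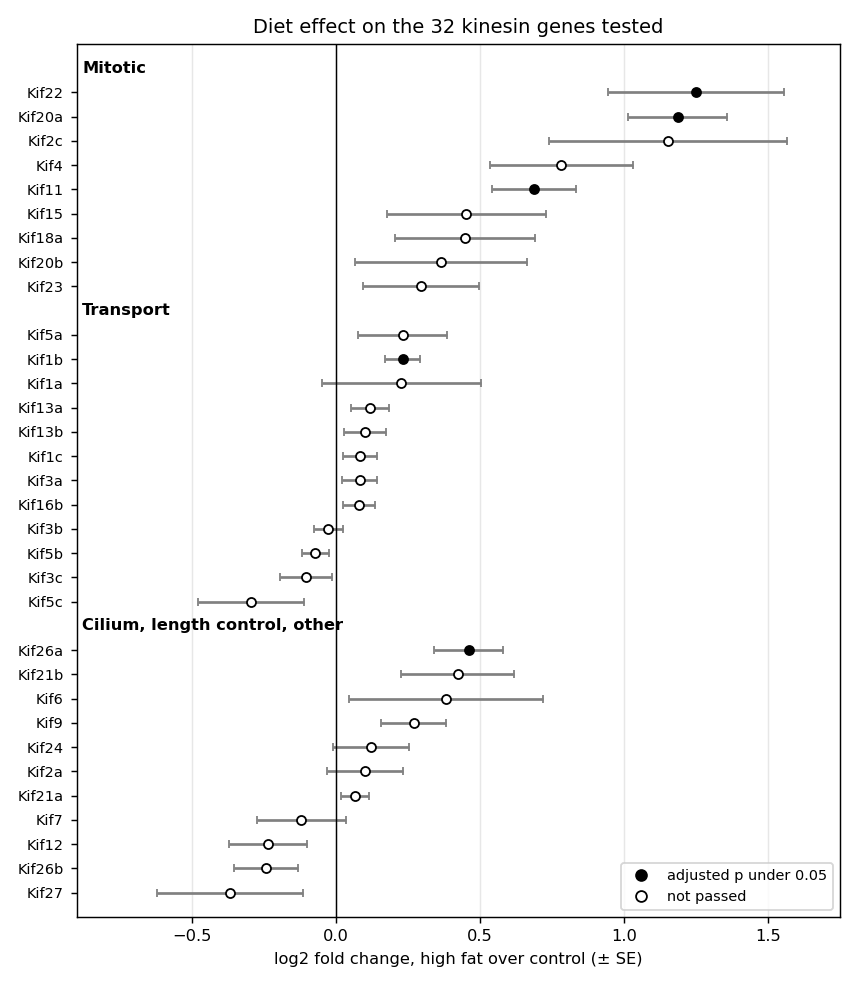
Log2 fold change, high fat over control, with its standard error for the 32 kinesin genes tested, by class; filled points passed at an adjusted p under 0.05. The mitotic genes run from 0.30 to 1.25, the transport genes from -0.30 to 0.23 and the others from -0.37 to 0.46.

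Kif20a, which carries the chromosomal passenger complex to the central spindle for cytokinesis, rose and kept its call in every fit that left out 1 library. It had 2.80, 2.94, 3.29 and 2.92 CPM in high fat libraries A, B, F and G, against 0.899, 1.56, 1.31 and 1.55 CPM in control libraries I, J, L and M. Every high fat library lay above every control library. The log2 fold change was 1.19 ± 0.17 (SE), or 2.27-fold, with an adjusted p of 0.00349 in edgeR, and 0.00444 to 0.0111 over the 8 fits without 1 library. The gene lies on chromosome 18 (34624613 to 34633277, plus strand, GRCm38), where its exons overlap those of Cdc23 on the other strand. The sources used here do not say whether counting used strand. Cdc23, a subunit of the anaphase-promoting complex, had 28.9 ± 1.56 CPM on high fat and 28.7 ± 1.71 CPM on control (SD, n = 4), with an adjusted p of 0.92 in edgeR.

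Kif11, the motor that pushes spindle poles apart, had 2.89, 2.89, 3.86 and 3.86 CPM in high fat libraries A, B, F and G, against 1.88, 2.18, 2.19 and 2.18 CPM in control libraries I, J, L and M. The groups did not overlap, and within high fat the libraries fell into a lower pair and a higher pair. The log2 fold change was 0.69 ± 0.15 (SE), with an adjusted p of 0.0166 in edgeR. It missed the threshold without high fat F (0.0523) and without control I (0.0511). Kif11 lies on chromosome 19 (37376403 to 37421859, plus strand).

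Kif22, which binds chromosome arms and helps to gather chromosomes at the spindle equator, had 1.22, 1.21, 1.64 and 1.26 CPM in high fat libraries, against 0.665, 0.0778, 0.705 and 0.568 CPM in control libraries I, J, L and M. All high fat values lay above all control values, and the control J value is a single count in the library with the least depth. The log2 fold change was 1.25 ± 0.31 (SE), with an adjusted p of 0.0284 in edgeR. Without control J it was 1.05 with an adjusted p of 0.0237. Leaving out high fat A (0.0509), F (0.0824) or G (0.0541), or control I (0.054) or M (0.0513), ended the call. Kif22 lies on chromosome 7 (127027729 to 127042471, minus strand).

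Kif4, which works with condensin on chromosomes and at the central spindle, had 1.44, 1.82, 1.27 and 1.22 CPM in high fat libraries, against 0.782, 0.389, 1.13 and 0.821 CPM in control libraries. These values did not overlap, but the gap between high fat G and control L was small. The log2 fold change of 0.78 ± 0.25 (SE) did not pass (adjusted p of 0.0692 in edgeR), though it did without control L (0.048). Exons of Kif4 overlap those of Pdzd11 on the X chromosome, which had a log2 fold change of -0.13 (adjusted p of 0.289 in edgeR).

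Kif23, the motor of the centralspindlin complex, overlapped between the diets. It had 3.52, 4.47, 4.35 and 2.84 CPM in high fat libraries, against 4.26, 2.72, 2.40 and 2.90 CPM in control libraries (log2 fold change 0.30 ± 0.20, adjusted p of 0.374 in edgeR). Kif20b, a cytokinesis motor, split the control libraries: it had 9.52, 11, 14.04 and 12.4 CPM in high fat libraries, against 13.5 and 12.3 CPM in control I and M and 4.36 and 5.33 CPM in control J and L. Its control values thus lay partly within and partly below the high fat range, and it did not pass (log2 fold change 0.36 ± 0.30, adjusted p of 0.468 in edgeR). Kif2c, which takes microtubules apart at centromeres, had 0.361 to 0.903 CPM on high fat and 0.141 to 0.622 CPM on control, so its larger log2 fold change of 1.15 ± 0.41 rested on overlapping values (adjusted p of 0.101 in edgeR). Kif15 and Kif18a, motors of spindle bipolarity and chromosome alignment, had log2 fold changes of 0.45 each and also overlapped.

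Of the mitotic genes too low to test, Kif18b, a motor that shortens astral microtubules, had 0.361, 0.373, 0.575 and 0.487 CPM in high fat libraries, against 0.117, 0, 0.141 and 0.189 CPM in control libraries. The high fat values lay above all control values, at 8 to 14 counts per high fat library. The 0 in control J allows up to 0.233 CPM (3 counts), a limit that covers counting error only. Kif14, a midbody motor, had 0.140 to 0.616 CPM on high fat and 0.195 to 0.311 CPM on control.

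**Figure D3:**
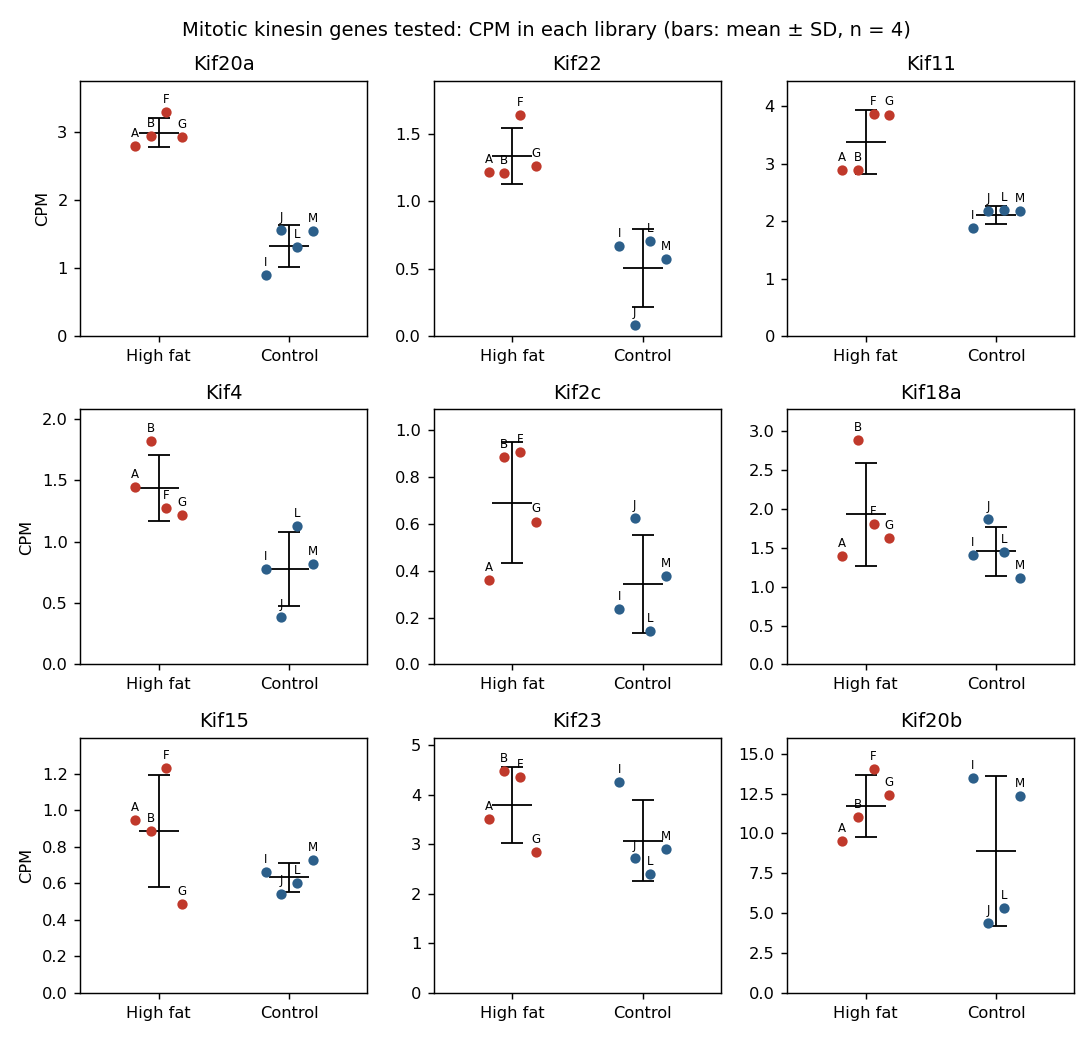
CPM of the 9 mitotic kinesin genes tested in each library, with letters naming libraries and bars giving mean and SD (n = 4 per diet), high fat left of control. Kif20a, Kif22, Kif11 and Kif4 do not overlap between the diets, while Kif20b and Kif23 have control libraries within the high fat range.

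The promoters of all kinesin genes were searched for 2 short motifs known from genes of the late cell cycle in mammals: TTTGAA, the core of the cell cycle genes homology region, and CCAAT, the box bound by NF-Y. RefSeq promoter windows (GRCm38.p6, 250 bases before to 50 after the start) were found for 31 of the 38 genes, with none for Kif20a or Kif5b. On either strand, TTTGAA was in 9 of 11 mitotic genes (81.8%), 1 of 10 transport genes and 2 of 10 others, and in 17.9% of all 32851 windows. Within 60 bases before and 30 after the start, a span chosen after the positions were seen, it was in 7 of 11 mitotic genes (63.6%), 1 of 10 transport genes (Kif1a) and 1 of 10 others (Kif26b), against 4.62% of all windows. CCAAT was in 7 of 11 mitotic genes (63.6%), 3 of 10 transport and 4 of 10 others, and in 37.4% of all windows. A CCAAT match and a TTTGAA match can overlap, since CCAAT ends and TTTGAA begins with T. A match is a description of the letters and not evidence of binding.

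The promoters of the 7 mitotic genes with TTTGAA near the start are shown with that of the ciliary motor Kif3a, a transport gene without it, for comparison. Each sequence runs from 60 bases before to 30 bases after the RefSeq start, read along the gene's strand. Capitals mark TTTGAA or CCAAT or their reverse complements (TTCAAA and ATTGG). In Kif11, Kif22 and Kif15 the TTTGAA match lies 17 to 19 bases before the start in reverse, while in Kif23, Kif18b, Kif20b and Kif4 it lies 3 to 20 bases after it in the forward direction, in tandem in Kif20b.
Kif11 (chr19:37376322-37376411, plus strand): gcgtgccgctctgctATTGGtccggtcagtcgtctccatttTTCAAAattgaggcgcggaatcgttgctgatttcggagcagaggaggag
Kif22 (chr7:127042391-127042480, minus strand): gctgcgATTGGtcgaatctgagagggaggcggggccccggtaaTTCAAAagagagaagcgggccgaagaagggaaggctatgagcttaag
Kif15 (chr9:122951021-122951110, plus strand): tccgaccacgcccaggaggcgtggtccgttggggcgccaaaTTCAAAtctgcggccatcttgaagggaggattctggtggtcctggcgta
Kif23 (chr9:61946770-61946859, minus strand): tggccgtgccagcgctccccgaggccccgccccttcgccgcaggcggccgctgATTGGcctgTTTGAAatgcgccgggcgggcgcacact
Kif18b (chr11:102925095-102925184, minus strand): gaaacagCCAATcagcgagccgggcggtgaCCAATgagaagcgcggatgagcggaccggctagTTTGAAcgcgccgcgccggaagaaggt
Kif20b (chr19:34922298-34922387, plus strand): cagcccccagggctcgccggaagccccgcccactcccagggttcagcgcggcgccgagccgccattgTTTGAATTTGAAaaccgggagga
Kif4 (chrX:100626005-100626094, plus strand): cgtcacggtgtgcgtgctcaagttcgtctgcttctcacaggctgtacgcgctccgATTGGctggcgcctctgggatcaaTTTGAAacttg
Kif3a (chr11:53567309-53567398, plus strand): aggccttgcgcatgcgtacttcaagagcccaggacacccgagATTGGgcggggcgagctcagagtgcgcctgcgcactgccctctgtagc
Among the genes shown that carry TTTGAA, Kif11 and Kif22 rose, Kif15, Kif23, Kif20b and Kif4 did not pass, and Kif18b was too low to test.

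Among transport kinesins, 1 of 12 tested genes rose, none fell and 11 did not pass. The share that rose was 8.33%, beside 4.86% of all genes tested. Kif1b, which carries mitochondria and vesicles, had 223, 198.1, 236 and 228 CPM in high fat libraries A, B, F and G, against 185, 183.7, 186 and 198.6 CPM in control libraries I, J, L and M. High fat B lay just below control M, so the groups overlapped. The log2 fold change was 0.23 ± 0.06 (SE), or 1.17-fold, with an adjusted p of 0.0385 in edgeR. Leaving out 1 library ended the call in 6 of 8 fits, with an adjusted p of 0.0809 (high fat A left out), 0.109 (F), 0.0936 (G), 0.0987 (control I), 0.0895 (J) and 0.084 (L). It was also lost with no filter on low counts (0.0505) and when a trend of fold change with transcript length was removed (0.087).

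Kif5b, on chromosome 18 (6201002 to 6242174, minus strand), had 241.7, 231.3, 231.5 and 230.1 CPM in high fat libraries, against 252, 246.5, 237 and 246.4 CPM in control libraries. High fat A alone lay within the control range (log2 fold change -0.07 ± 0.05, adjusted p of 0.356 in edgeR). Kif13b, a vesicle motor that binds the scaffold protein Dlg1, had 64.1, 57.4, 61.1 and 66.0 CPM in high fat libraries, against 58.0, 50.9, 59.2 and 63.3 CPM in control libraries. These ranges overlapped (log2 fold change 0.10 ± 0.07, adjusted p of 0.409 in edgeR).

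Kif3a and Kif3b form the motor that drives intraflagellar transport into the primary cilium, and loss of Kif3a from kidney tubules gives cysts in mice. Kif3a had 21.1, 21.2, 19.9 and 20.3 CPM in high fat libraries, against 19.7, 20.7, 18.97 and 18.7 CPM in control libraries. Kif3b had 50.5, 49.4, 49.9 and 49.7 CPM in high fat libraries, against 53.0, 52.3, 48.2 and 49.8 CPM in control libraries. Both overlapped between the diets, with log2 fold changes of 0.08 ± 0.06 and -0.03 ± 0.05 and adjusted p of 0.41 and 0.783 in edgeR. A p that misses the threshold does not show that the levels were equal. The other transport genes tested (Kif1a, Kif1c, Kif3c, Kif5a, Kif5c, Kif13a and Kif16b) had log2 fold changes from -0.30 to 0.23, none with an unadjusted p under 0.05, and Kif17 was too low to test at 0.0705 to 0.373 CPM over both diets.

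Of the 11 cilium, microtubule length and other kinesins tested, Kif26a rose (9.09%, beside 4.86% of all genes tested) and 10 did not pass. Kif26a is an atypical kinesin that in mice restrains GDNF-Ret signalling in enteric neurons. It had 6.90, 6.11, 7.84 and 6.74 CPM in high fat libraries A, B, F and G, against 4.65, 5.29, 5.78 and 4.42 CPM in control libraries I, J, L and M. All high fat values lay above all control values, by a narrow margin between high fat B and control L. The log2 fold change was 0.46 ± 0.12 (SE), with an adjusted p of 0.0355 in edgeR, and the gene lies on chromosome 12 (112146208 to 112181747, plus strand). The call held in 2 of 8 fits without 1 library: leaving out high fat A (0.0684), F (0.102) or G (0.066) or control I (0.0965), J (0.0629) or M (0.0725) ended it, as did removal of the length trend (0.0579). Its relative Kif26b, needed for kidney formation in mouse embryos, had a log2 fold change of -0.24 ± 0.11 and did not pass (adjusted p of 0.186 in edgeR).

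Kif12 varied more between control libraries than between the diets. It had 101.7, 94.5, 104 and 106 CPM in high fat libraries, against 86.1, 108.5, 142.5 and 141.3 CPM in control libraries I, J, L and M. Control L and M, and by a small margin control J, lay above every high fat library, and control I lay below them all (log2 fold change -0.24 ± 0.14, adjusted p of 0.29 in edgeR). Kif21a had 196, 201, 186 and 192 CPM in high fat libraries, against 193, 182.5, 184 and 179.6 CPM in control libraries, with overlap (log2 fold change 0.07 ± 0.05, adjusted p of 0.419 in edgeR). Kif9, a motor of motile cilia, had 5.64 to 6.52 CPM on high fat and 4.46 to 5.68 CPM on control and did not pass (adjusted p of 0.156 in edgeR). The Hedgehog regulator Kif7 and its relative Kif27 had log2 fold changes of -0.12 ± 0.16 and -0.37 ± 0.25, the second with control J and L above all other libraries. Kif24 and Kif2a, which depolymerise microtubules, Kif21b and Kif6 ran from 0.10 to 0.42 and did not pass.

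The contrast of the classes asks whether mitotic kinesins made up more of the kinesin RNA, relative to transport kinesins, on high fat. On average they did, but with all 12 mitotic genes the ratio to transport kinesins overlapped between the diets. The 12 mitotic genes summed to 24.8, 29.5, 33.6 and 28.1 CPM in high fat libraries A, B, F and G, against 24.6, 14.6, 15.6 and 23.1 CPM in control libraries I, J, L and M. The 13 transport genes summed to 1045, 1003, 1029 and 1060 CPM in high fat libraries, against 979, 977.7, 989 and 994 CPM in control libraries. The mitotic sums came close at high fat A (24.82 CPM) and control I (24.59 CPM) but did not overlap. The transport sums did not overlap either and differed by a ratio of only 1.05. The log2 ratio of the mitotic to the transport sum averaged -5.17 ± 0.20 on high fat and -5.70 ± 0.38 on control (SD, n = 4), a difference of 0.53 that corresponds to 1.45-fold and comes with overlapping ranges.

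The mitotic sum depends on the classing of Kif2a, a relative of Kif2b and Kif2c that was placed among the other kinesins. Kif2a had 14.27 ± 2.71 CPM on high fat and 13.41 ± 1.41 CPM on control (SD, n = 4). By mean it would have been the largest member, and no sum with it was made. Kif20b alone made up 29.8% to 54.8% of the mitotic sum. With Kif20b left out, a choice made after its split among control libraries was seen, the log2 ratio averaged -5.91 ± 0.20 on high fat and -6.54 ± 0.06 on control (SD, n = 4), a difference of 0.63, and the diets no longer overlapped. The ratio within a library does not depend on how libraries are scaled. Mitotic genes gave 2.06 ± 0.27% of all kinesin counts on high fat and 1.44 ± 0.39% on control (SD, n = 4). No test was run on these sums, because the genes were chosen with earlier results known. Without 1 library the difference ran from 0.41 (without control J) to 0.66 (without control I).

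**Figure D4:**
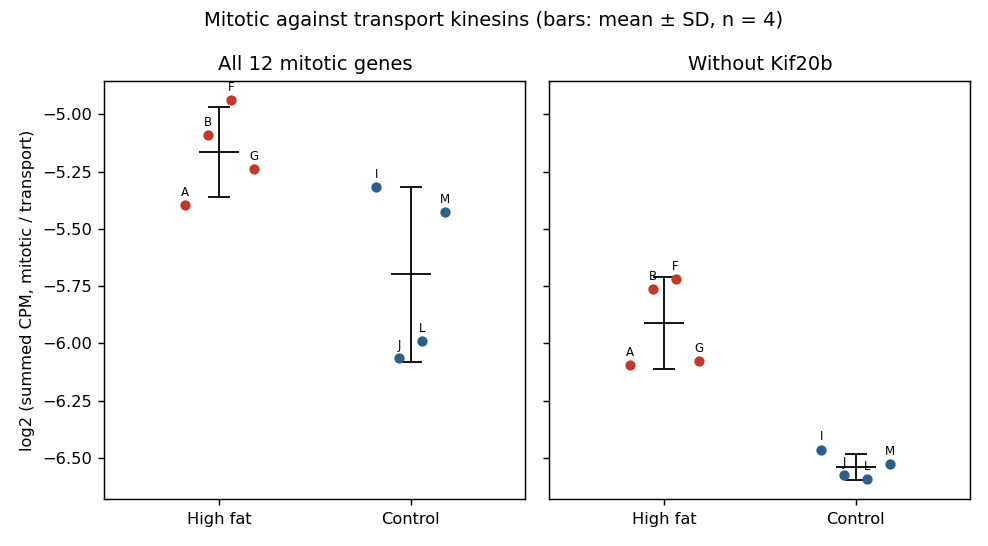
Log2 ratio of the summed CPM of mitotic to transport kinesin genes in each library, high fat left of control, with bars for mean and SD (n = 4); the right panel leaves out Kif20b. The ranges overlap with all 12 mitotic genes and separate without Kif20b.

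Kinesins and partners outside the symbol rule gave 2 higher genes of 10 tested and none lower, beside 4.86% higher among all genes tested. Cenpe, the kinetochore kinesin, had 3.45 ± 0.52 CPM on high fat and 1.98 ± 0.29 CPM on control (SD, n = 4; log2 fold change 0.77 ± 0.15, adjusted p of 0.0124 in edgeR). Kifc1, a minus-end motor that focuses spindle poles, had 1.45 ± 0.33 CPM on high fat and 0.618 ± 0.18 CPM on control (SD, n = 4; log2 fold change 1.17 ± 0.24, adjusted p of 0.0154 in edgeR). Kifc5b is a near copy of Kifc1, so reads may be split between them; it did not pass (log2 fold change 0.37, adjusted p of 0.191). The kinesin light chains Klc1, Klc2, Klc3 and Klc4 and the kinesin-associated Kifap3 did not pass.

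Other genes of the spindle and of cytokinesis were counted from a list of 32, which holds no Kif gene but does hold Cenpe and Kifc1. Of the 30 tested, 16 rose by the edgeR test and none fell, leaving 14 that missed the threshold. Among all genes tested, 4.86% were higher and 5.13% lower on high fat. The median log2 fold change of the 30 was 0.81. None was lower even at an unadjusted p under 0.05, beside 14.1% lower of all genes tested. By smallest p the genes that rose were led by Nusap1 (0.79), Iqgap3 (1.56), Mki67 (1.23), Cenpf (1.23), Top2a (0.95) and Anln (0.93), which act in spindle assembly, cytokinesis or chromosome structure or mark dividing cells. The list summed to 76.9, 89.8, 105 and 83.6 CPM in high fat libraries, against 53.0, 45.1, 48.1 and 60.9 CPM in control libraries, with no overlap. The number higher was 10 without high fat F and 11 without control L. It was 6 when the library with most Rn45s (control J) and the one with most red cell RNA (high fat G) were both left out. Higher calls over all genes tested also fell, from 715 to 421 without high fat F and 511 without control L. They fell to 245 without both control J and high fat G.

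Of 18 DNA replication genes tested, E2f1, a transcription factor that drives entry into S phase, rose (log2 fold change 1.00 ± 0.21) and Mcm6, a subunit of the replicative helicase, fell (-0.46 ± 0.10), with a median of 0.11. Among all genes tested, 9.99% passed. Of the 18 values, 15 lay above 0 and 3 below. At an unadjusted p under 0.05 in edgeR, 5 were higher and 1 lower, beside 13.3% higher and 14.1% lower of all genes. The sums overlapped, at 222 to 245 CPM on high fat and 214 to 232 CPM on control.

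Tubulins are the subunits of the microtubules on which kinesins run. Of 11 tubulin genes tested, 6 fell by the edgeR test and none rose, leaving 5 that missed the threshold. Among all genes tested, 5.13% were lower and 4.86% higher on high fat. No tubulin was higher at an unadjusted p under 0.05, beside 13.3% higher of all genes tested. The median log2 fold change of the tubulins was -0.37. By smallest p the genes that fell were Tubb2a (-0.81), Tuba4a (-0.48), Tuba1c (-0.37), Tubb2b (-0.65), Tuba1a (-0.46) and Tuba1b (-0.34). Near-identical copies among tubulin genes can split reads. The 13 tubulins of the list summed to 715, 683, 624 and 692 CPM in high fat libraries, against 744, 975, 918 and 915 CPM in control libraries. Control I was thus close to the high fat range. Without high fat F, 4 tubulin genes were lower, while lower calls over all genes tested went from 754 to 318.

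Cargo and cilium partners of the transport motors mostly did not pass, and 9.99% of all genes tested passed. The share called in each of these lists was no higher than that. Of 21 adaptors tested, Plekhm2, which links Kif5b to lysosomes, rose (log2 fold change 0.87 ± 0.10, adjusted p of 0.00157 in edgeR), and Lin7c, a scaffold for Kif17 cargo, fell (-0.18 ± 0.05, 0.0345). Dynll1, a dynein light chain, fell (-0.58 ± 0.07) as the only call among 22 dynein and dynactin genes. Wdr19, a subunit of the retrograde intraflagellar transport complex, rose (0.41 ± 0.10) as the only call among 21 genes of that machinery. The call of Lin7c ended without high fat A, F or G or control I, J or L, and that of Wdr19 without high fat A, B or F or control J, where no gene of their lists passed in that direction. None of 14 Hedgehog pathway genes passed in edgeR, with Gli3 (0.51) the 1 gene at an unadjusted p under 0.05.

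**Figure D5:**
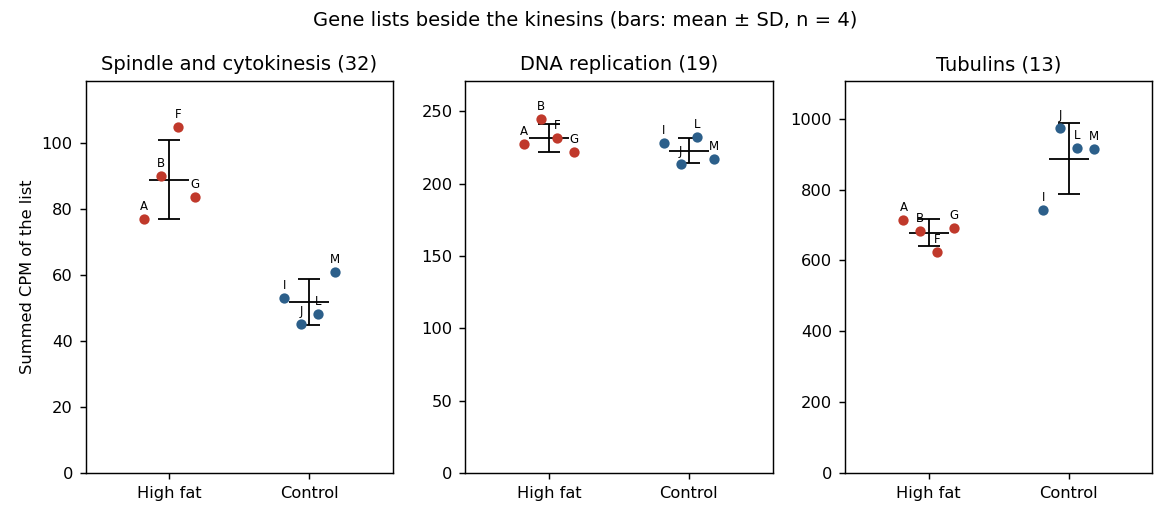
Summed CPM of gene lists that work beside the kinesins, in each library, with letters naming libraries and bars giving mean and SD (n = 4), high fat left of control. The spindle and cytokinesis list is higher in every high fat library, the DNA replication list overlaps, and the tubulin list is lower in every high fat library.

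The authors' deposited tables of comparisons list some of the same genes. In the authors' deposited table by Ensembl gene, with 1175 genes listed, the fold of high fat over control was 2.43 for Kif20a, 1.66 for Kif11, 3.10 for Kif22, 1.38 for Kif26a and 1.18 for Kif1b. In the authors' deposited table by gene symbol, with 1133 listed, it was 1.602 for Kif11, 1.37 for Kif26a and 1.18 for Kif1b, and Kif20a and Kif22 were not in its list.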

How the data were processed

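The submitters' processing notes name RSEM 1.2.9, CASAVA 1.8.2 and mm10. Deposited by the authors were RSEM expected counts (estimated, so not always whole) and FPKM for each gene symbol, and tables of comparisons with a ratio (fold) of the diets and a posterior probability as a score, one of them with FPKM by Ensembl gene. How those tables were computed was not stated.

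Counts were rounded, Rn45s was removed, and diet was tested by the quasi-likelihood F test of edgeR 4.0.16 (R 4.3.3) after filterByExpr and TMM and called at 0.05 after Benjamini-Hochberg adjustment; the SE is the absolute log2 fold change over the root of F. CPM are TMM-normalised counts. The steps were checked on simulated data, where the pass mark concerned only changes larger than those of the kinesins called. Depths of 13993652 to 30403685 counts without Rn45s give genes below 1 CPM the least precise values.

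The members, their classes and all gene lists were chosen with earlier results of these data known. Full values are given for called members and 12 named motors, and others by range; Kif20b and Kif18b were added in full after their values were seen. Alternatives were DESeq2 1.42.0 and its size factors, limma 3.58.1 (voom, and log2 FPKM with pseudocounts of 0.1 or 1 at a mean of at least 0.5 FPKM), other filters and thresholds, structural RNAs left out, a length trend removed by loess, and leaving out libraries; a robust fit and the sum without Kif20b were added after the data were seen. Positions are from GENCODE M21 and promoters from RefSeq (GRCm38.p6). Library letters differ between diets, so none were paired.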

Additional observations from a re-analysis of the deposited data

Results flagged for a closer look

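In 6 of 74 sets of 4 libraries (each kinesin gene in each diet), 1 library stood apart from the other 3 of its diet by more than Dixon's 95% criterion, which chance does in about 1 of 20 sets. Kif22 was 1.64 CPM in high fat F, against 1.21 to 1.26 CPM in the other high fat libraries. Kif5b was 241.7 CPM in high fat A, against 230.1 to 231.5 CPM in the others. Kif11 was 1.88 CPM in control I, against 2.18 to 2.19 CPM in the other control libraries. Kif1b was 198.6 CPM in control M, against 183.7 to 185.7 CPM in the others. Kif2b was 0.0451 CPM in high fat A (1 count) and 0.0947 CPM in control M (3 counts), with 0 in all other libraries.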

How the results depend on the processing

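The number of kinesin genes called, 5, and of all genes called, 1469, stayed within 1.5 times with Rn45s kept, structural RNAs left out, DESeq2 size factors, DESeq2, limma-voom, no filter and a robust fit; with no filter Kif18b was called and Kif1b was not. By limma on log2 FPKM, 1 kinesin (Kif20a) and 812 genes passed with a pseudocount of 0.1, and 2 kinesins (Kif20a and Kif22) and 825 genes with 1. With a mean of at least 5 CPM, 2 of the 17 kinesins then tested passed (Kif1b and Kif26a), since the filter removes most mitotic genes. With the length trend removed, 3 passed (Kif11, Kif20a and Kif22); the kinesins tested have a median effective length of 5.4 kb against 2.73 kb for all genes. At an adjusted p under 0.1, 2547 genes passed. Without control J and high fat G, 2 kinesins (Kif20a and Kif22) and 418 genes passed. Without 1 library, 1 to 5 kinesins and 739 to 1528 genes passed; the causes of these changes were not tested. The mitotic to transport difference, 0.53, ran from 0.41 to 0.66 without 1 library and from 0.44 to 0.63 over the other alternatives. Among 266 values of 13 single kinesin genes under alternatives, none changed direction, 32 lost their call and 2 (Kif4) gained it. No paired analysis was possible because the library letters differ between the diets. Mitotic kinesins rest on 188 to 818 counts per library in all, which limits their precision.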
